A study of Mus musculus with 8 samples.

Results

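The genes described here encode the ligands, the converting enzyme and the receptors of neuregulin, heparin-binding EGF and endothelin signalling. They were the 10 gene names Nrg1, Hbegf, Edn1, Ece1, Egfr, Erbb2, Erbb3, Erbb4, Ednra and Ednrb, out of 27827 gene names on the array, and all of their 31 probes out of 41174 were read. They were chosen by name, as signals proposed to induce conduction cells, and ligands were kept apart from receptors. The study compared 4 GFP-high with 4 GFP-low samples of sorted heart cells from E10.5 mouse embryos, a stage named for the embryonic day. All embryos carried minKGFP, a bacterial artificial chromosome transgene in which green fluorescent protein reports the gene for minK (Kcne1), a potassium channel subunit. GFP-high cells were labelled as cardiac conduction system and GFP-low cells as chamber myocardium, so both groups carried the transgene and were parted by its brightness alone. The labels call the samples biological replicates. Genetic background, sex, litter and whether embryos were pooled are not given in the sources used here.

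RNA was read on 1-colour Agilent arrays after amplification of 5 ng of total RNA per sample. Levels are log2 of the processed signal minus the array's 75th percentile, so 0 marks the brightness that 25% of an array's spots exceeded. A probe was counted as measured on an array when the scanner software flagged it as well above background. Between 36.3% and 50.7% of the spots of an array were measured, lowest on GFP-high replicate 3 and highest on GFP-low replicate 2. Kcne1 separated the groups on both of its probes, by 2.83 and 1.29 on the log2 scale. Summed over 11 cardiomyocyte markers, the signal was 2628 to 3992 times the 75th percentile in GFP-high and 1832 to 3209 times in GFP-low. The summed signal of 13 atrioventricular canal and sinus node markers was 55.3 to 62.9 in GFP-high and 21.3 to 28.1 in GFP-low, with Shox2 not measured on any array. The 13 include Kcne1, whose reporter the cells were sorted on, and they were listed with earlier results of these data known.

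Neuregulin 1 is made mainly by the endocardium of the developing heart and binds ErbB3 and ErbB4, while ErbB2 has no ligand of its own and signals as their partner. HB-EGF, the product of Hbegf, binds EGFR and ErbB4. Endothelin 1, the product of Edn1, is cut from a larger peptide by endothelin-converting enzyme (Ece1) and acts on the G protein-coupled receptors ETA (Ednra) and ETB (Ednrb). In cultured hearts of mouse embryos neuregulin 1 is known to expand the activity of a conduction reporter, and in chick embryonic heart muscle cells endothelin is known to induce Purkinje fibre genes.

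Which part of a transcript a probe reads matters for these genes, so the probe sequences that carry the reading are shown first. The array has 5 Nrg1 probes. Of these, 3 target a RefSeq transcript and lie in its coding part, which is known to hold the EGF-like domain that binds the receptors and the cytoplasmic tail of the membrane-bound forms. The first probe below lies in the EGF-like domain (mm9 chr8:32959791-32959850, minus strand). The next crosses a splice junction at the end of that domain and spans 6501 bases of genome (chr8:32941681-32948181). The last lies in the cytoplasmic tail (chr8:32932765-32932824). Capitals mark the cysteine codons in the single reading frame without a stop in all 3, since cysteine pairs hold the EGF-like fold.
Nrg1 A_52_P369769: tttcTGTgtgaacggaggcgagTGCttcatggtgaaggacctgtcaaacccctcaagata
Nrg1 A_52_P369761: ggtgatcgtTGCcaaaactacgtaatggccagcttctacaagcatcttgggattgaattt
Nrg1 A_52_P52635: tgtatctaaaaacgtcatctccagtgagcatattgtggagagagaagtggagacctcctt

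Erbb2, Erbb3 and Erbb4 each have a probe in the same stretch of the kinase domain, and these are shown because related receptors could share signal. The probes lie at mm9 chr11:98295824-98295883 on the plus strand for Erbb2, chr10:128009195-128009254 on the minus strand for Erbb3 and chr1:68125116-68125175 on the minus strand for Erbb4. Capitals mark the bases that all 3 probes share when aligned, 33 of the 56 bases compared (58.9%).
Erbb2 A_51_P216179: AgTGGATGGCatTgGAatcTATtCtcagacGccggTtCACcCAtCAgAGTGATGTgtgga
Erbb3 A_51_P342050: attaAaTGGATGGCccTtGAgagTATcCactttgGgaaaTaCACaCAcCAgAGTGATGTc
Erbb4 A_51_P396034: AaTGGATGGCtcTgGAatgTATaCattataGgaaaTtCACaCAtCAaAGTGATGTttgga
Pairwise identity was 62.5% between Erbb2 and Erbb3, 70% between Erbb2 and Erbb4 and 78.6% between Erbb3 and Erbb4, with no shared run longer than 11 bases. The Erbb3 probe was measured on none of the 8 arrays, and the Erbb2 and Erbb4 probes were measured on 7 and 5 arrays. Whether these probes share signal was not tested.

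Of the 10 genes, 7 had a highest-signal probe measured on at least 4 of the 8 arrays and were tested, and Edn1, Egfr and Ednrb were not. None of the 7 passed a limma adjusted p of 0.05 over the 12889 genes tested, of which 18 (0.14%) passed, 9 (0.0698%) higher and 9 (0.0698%) lower in GFP-high. The difference was above 0 for 6 of the 7, Nrg1 being the exception, and its median was 0.75, against a median of 0.16 and a positive share of 62.1% over all tested genes. Only Hbegf had an unadjusted limma p under 0.05, as did 14.3% of all tested genes. The lowest limma adjusted p was 0.185 for Hbegf and the highest 0.968 for Nrg1. Fewer cells of a type and less RNA per cell cannot be told apart in these sorted samples.

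**Figure D1:**
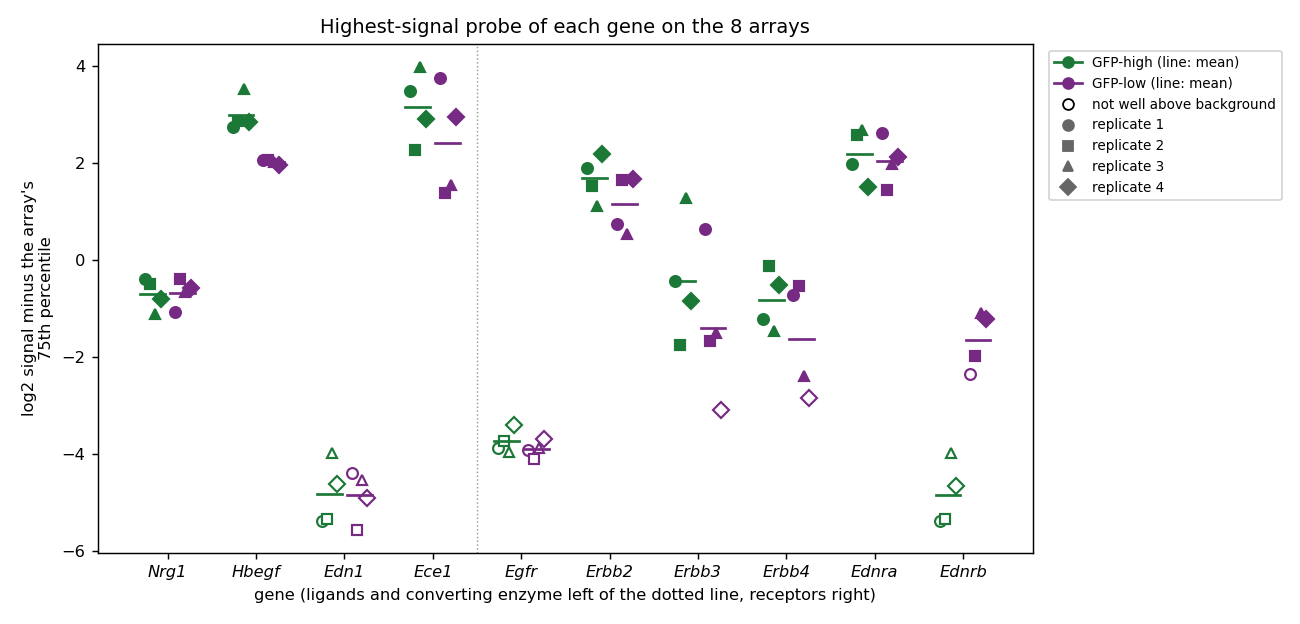
Level of the highest-signal probe of each of the 10 genes on the 8 arrays, as log2 signal minus the array's 75th percentile, with GFP-high left of GFP-low, a line at each group's mean and open symbols where the probe was not well above background. Hbegf lies at 2.75 to 3.54 in GFP-high and at 1.96 to 2.07 in GFP-low, and Ednrb is open on all 4 GFP-high arrays. Heights of different probes are not comparable.

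Hbegf, the ligand of EGFR and ErbB4, was the tested member whose groups did not overlap. Its probe A_51_P181565 (mm9 chr18:36664738-36664797, minus strand) read 2.75, 2.86, 3.54 and 2.85 on GFP-high replicates 1 to 4, against 2.06, 2.07, 2.02 and 1.96 on GFP-low replicates 1 to 4. All GFP-high arrays lay above all GFP-low arrays, and GFP-high replicate 3 stood above the other 3. Of all tested genes, 8.95% had groups that did not overlap, 5.87% higher and 3.08% lower in GFP-high. The group means were 3.0 ± 0.36 in GFP-high and 2.03 ± 0.049 in GFP-low (SD, n = 4 each), a 1.97-fold difference. The log2 difference was 0.97 ± 0.25 (SE of the limma fit, 95% interval 0.41 to 1.54), with a limma adjusted p of 0.185 and place 271 of 12889 by p. The exact two-sided permutation test gave p = 0.0286, the smallest that 70 assignments of the arrays allow. The difference was 0.74 on slide 1, which held replicates 1 and 2 of both groups, and 1.21 on slide 2, which held replicates 3 and 4. Without GFP-high replicate 3 it was 0.79.

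The summed signal of 7 leukocyte markers was 11.0 to 15.5 times the 75th percentile in GFP-high and 3.72 to 6.20 times in GFP-low. Of that sum, the myeloid gene Lyz2, which encodes lysozyme, made up 90.3% to 92.3% in GFP-high and 77.7% to 90.2% in GFP-low. Without Lyz2 the sums overlapped, at 0.843 to 1.50 in GFP-high and 0.367 to 1.38 in GFP-low. Lyz2 differed by 1.46 ± 0.24 on the log2 scale (SE of limma, adjusted p = 0.0951), while Ptprc, the pan-leukocyte antigen, and Csf1r, the macrophage growth factor receptor, were measured on no array. Tyrobp and Fcer1g were each measured on 1 GFP-low array alone, and C1qb differed by -0.026. Of the 3 tested leukocyte markers (Lyz2, Cd68 and C1qb), 2 had a difference above 0, and the median was 0.94. The summed signal of the conduction markers given above, which include Kcne1 itself, also separated the groups. The part of either in the Hbegf difference was not tested.

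Nrg1 overlapped between the groups on the only probe under its name that was measured on all 8 arrays. This probe, A_52_P158772 (mm9 chr8:32925808-32925867, minus strand), was designed to a cDNA that the files call unclassifiable, and it lies 3′ of the other Nrg1 probes on the same strand. Whether it reads Nrg1 transcripts could not be checked here. Its levels were -0.40, -0.49, -1.11 and -0.79 on GFP-high replicates 1 to 4, against -1.07, -0.38, -0.66 and -0.56 on GFP-low replicates 1 to 4. Each group held 1 array below -1. The difference was -0.030 ± 0.27 (SE), with a 95% interval of -0.64 to 0.58 and a limma adjusted p of 0.968. Its sign differed between the slides, at 0.28 on slide 1 and -0.34 on slide 2.

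The coding probes of Nrg1 were at the edge of detection. The EGF-like domain probe A_52_P369769, shown above, was measured on GFP-high replicates 1 and 2 (-2.56 and -2.79) and on GFP-low replicate 2 (-3.19). The junction probe A_52_P369761 was measured on GFP-high replicate 2 (-2.14) and on GFP-low replicate 2 (-1.68). Neither the cytoplasmic tail probe A_52_P52635 nor the cDNA probe A_52_P328064 was measured on any array. None of these 4 probes was tested. The EGF-like domain and junction probes were thus measured on some arrays of both groups and gave no comparison. Splice forms that lack the sequence of a probe would not be read by it.

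Edn1, the endothelin precursor gene, was not measured on any array. Its single probe A_51_P115005 (mm9 chr13:42403101-42403160, plus strand) read -5.38 to -3.98 in GFP-high and -5.56 to -4.39 in GFP-low, all of it background. No statement on a difference can be made for it. Ece1, which frees active endothelin from its precursor, was measured on all 8 arrays by the probe A_52_P635278 (mm9 chr4:137521065-137521124, plus strand). It read 3.48, 2.28, 3.98 and 2.92 on GFP-high replicates 1 to 4, against 3.75, 1.40, 1.56 and 2.94 on GFP-low replicates 1 to 4. The groups overlapped, since GFP-low replicate 1 lay above 3 of the GFP-high arrays. The means were 3.17 ± 0.73 in GFP-high and 2.41 ± 1.13 in GFP-low (SD, n = 4 each). The difference of 0.75 ± 0.60 (SE, 95% interval -0.61 to 2.12) had a limma adjusted p of 0.567. It was 0.31 on slide 1 and 1.20 on slide 2, and it was 0.42 without GFP-low replicate 2, 0.47 without GFP-low replicate 3, 0.48 without GFP-high replicate 3 and 1.20 without GFP-low replicate 1. The other Ece1 probe, A_51_P466423, was not measured.

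**Figure D2:**
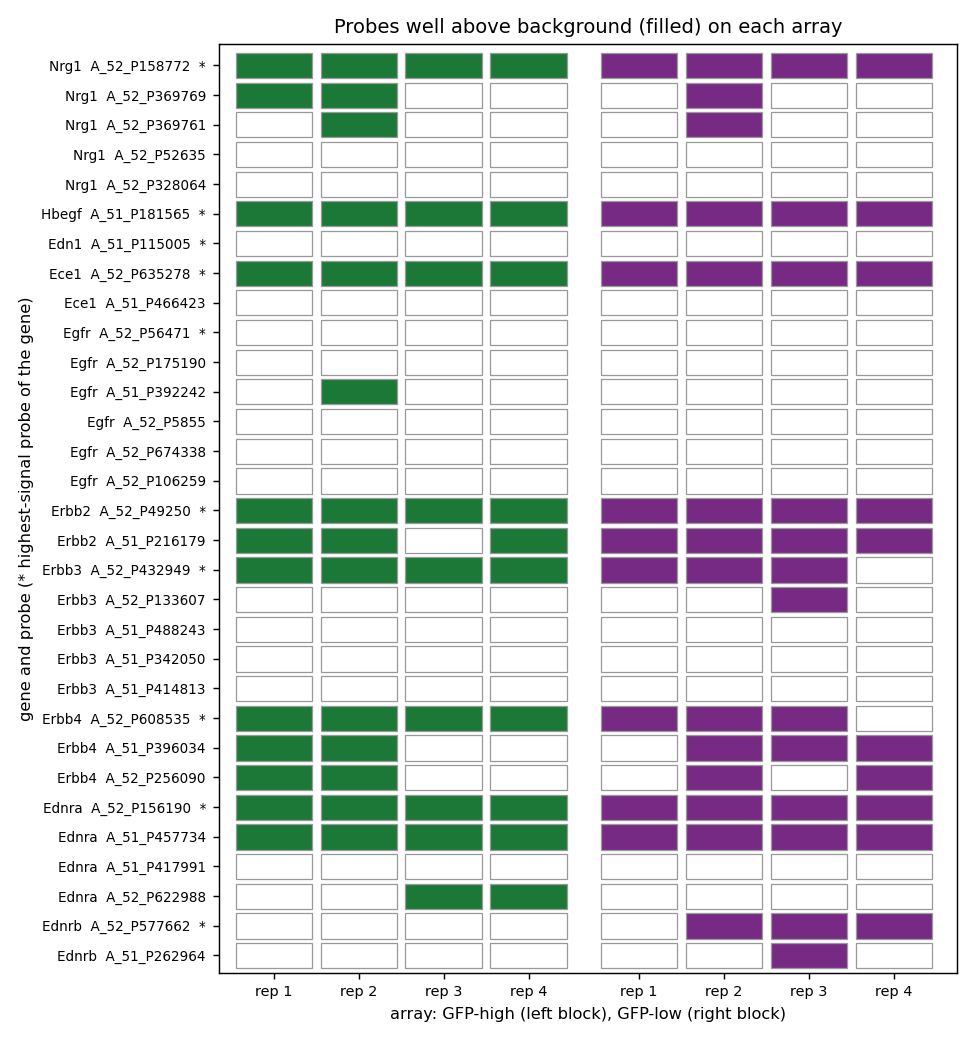
The 31 probes of the 10 genes (rows) on the 8 arrays (columns, GFP-high in the left block and GFP-low in the right block), filled where the probe was well above background. Of the 31 probes, 13 are empty throughout and 6 are filled on all 8 arrays.

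Many of the member probes were dim. Of the 31 probes, 13 (41.9%) were measured on no array, against 35.8% of all probes, and 6 (19.4%) on all 8 arrays, against 29.3% of all probes. The plot of detection by probe shows 5 of the 6 Egfr probes empty, and Ednrb filled only in GFP-low. Each of the 6 receptor genes had at least 1 probe measured on at least 1 array, and Egfr no more than that.

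Egfr, the EGF and HB-EGF receptor, was at background in both groups. Its highest-signal probe A_52_P56471 (mm9 chr11:16783545-16783604, plus strand) read -3.95 to -3.40 in GFP-high and -4.11 to -3.69 in GFP-low and was measured on none of the arrays. The probe A_51_P392242, spotted 10 times per array, was measured on GFP-high replicate 2 alone, at -2.98. The other 4 probes were measured nowhere.

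Erbb2, the shared partner receptor, was measured on all arrays by its highest-signal probe, and its 2 probes gave differences of opposite sign. The probe A_52_P49250 (mm9 chr11:98298103-98298162, plus strand, 10 spots) read 1.90, 1.52, 1.13 and 2.20 on GFP-high replicates 1 to 4, against 0.74, 1.65, 0.54 and 1.67 on GFP-low replicates 1 to 4. The 2 lowest arrays were GFP-low, and the rest overlapped. The means were 1.69 ± 0.46 in GFP-high and 1.15 ± 0.60 in GFP-low (SD, n = 4 each). The difference was 0.53 ± 0.37 (SE, 95% interval -0.32 to 1.38), with a limma adjusted p of 0.522. It was 0.51 on slide 1 and 0.55 on slide 2, the closest pair of slide values among the tested member probes. The kinase domain probe A_51_P216179 read -1.35, -1.11, -2.08 and -1.64 on GFP-high replicates 1 to 4, against -1.83, -1.58, -0.10 and -1.09 on GFP-low replicates 1 to 4. GFP-low replicate 3 lay far above the other 7 arrays on this probe. Its difference was -0.40, with a limma adjusted p of 0.683 over all probes, and it was 0.48 on slide 1 and -1.27 on slide 2. Averaged over both probes, the Erbb2 difference was 0.069.

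Erbb3, a neuregulin receptor with a weak kinase, was measured by 1 of its 5 probes on more than a single array. That probe, A_52_P432949 (mm9 chr10:128004749-128004808, minus strand), read -0.43, -1.76, 1.29 and -0.83 on GFP-high replicates 1 to 4, against 0.65, -1.66, -1.49 and -3.09 on GFP-low replicates 1 to 4. GFP-low replicate 4 was the lowest and was not measured, and the groups overlapped through most of their range. The difference of 0.97 ± 0.86 (SE, 95% interval -1.0 to 2.93) had a limma adjusted p of 0.608 and was -0.58 on slide 1 and 2.52 on slide 2. Leaving out 1 array gave 0.39 (without GFP-high replicate 3) to 1.65 (without GFP-low replicate 1), with 0.41 without GFP-low replicate 4. The probe A_52_P133607 was measured on GFP-low replicate 3 alone. Both kinase domain probes, which share 40 bases, and A_51_P414813 were measured nowhere. Whether the measured probe reads the same transcripts as the 4 dim ones was not tested.

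Erbb4, the kinase-active neuregulin receptor, had 3 tested probes. A_52_P608535 reads the extracellular part (mm9 chr1:68393142-68393201, minus strand). A_52_P256090 crosses a splice junction in the cytoplasmic tail and spans 28839 bases of genome (chr1:68089289-68118127, minus strand). They are shown because, with the kinase domain probe above, they were designed to 3 separate parts of 1 RefSeq transcript. The junction probe matches in full only splice forms that join its 2 exons, so its readings need not stand for all Erbb4 transcripts.
Erbb4 A_52_P608535: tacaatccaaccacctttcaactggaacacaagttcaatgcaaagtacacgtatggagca
Erbb4 A_52_P256090: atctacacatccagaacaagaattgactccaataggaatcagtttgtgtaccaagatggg
The extracellular probe read -1.20, -0.11, -1.47 and -0.51 on GFP-high replicates 1 to 4, against -0.72, -0.53, -2.39 and -2.85 on GFP-low replicates 1 to 4. GFP-low replicates 3 and 4 were the lowest, and GFP-low replicates 1 and 2 lay inside the GFP-high range. The difference was 0.80 ± 0.59 (SE, 95% interval -0.55 to 2.14) with a limma adjusted p of 0.545, and it was -0.036 on slide 1 and 1.63 on slide 2. Leaving out 1 array gave 0.39 (without GFP-low replicate 4) to 1.16 (without GFP-low replicate 2). The kinase domain probe read 0.11, -1.15, -2.0 and -3.37 on GFP-high replicates 1 to 4, against -2.84, -1.29, -1.23 and -1.06 on GFP-low replicates 1 to 4. It was measured on 2 GFP-high and 3 GFP-low arrays. Its slide values were 1.55 and -1.54, opposite in sign and nearly equal in size, and the pooled difference was 0.0038 (limma adjusted p over all probes 0.999). The junction probe was measured on 2 arrays of each group and had a difference of 0.80 (limma adjusted p over all probes 0.715). No Erbb4 probe was thus measured on all 8 arrays.

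Ednra, the endothelin receptor ETA, was measured on all 8 arrays by 2 probes. The probe A_52_P156190 (mm9 chr8:80186985-80187044, minus strand) read 1.99, 2.59, 2.69 and 1.50 on GFP-high replicates 1 to 4, against 2.61, 1.44, 1.98 and 2.12 on GFP-low replicates 1 to 4. The groups covered nearly the same range. The means were 2.19 ± 0.56 in GFP-high and 2.04 ± 0.48 in GFP-low (SD, n = 4 each), and the difference was 0.15 ± 0.37 (SE, 95% interval -0.68 to 0.99, limma adjusted p = 0.858). The probe A_51_P457734 (chr8:80191715-80191774) read 0.47, 0.07, 0.55 and 1.12 on GFP-high replicates 1 to 4, against 0.39, 0.22, -1.63 and 0.19 on GFP-low replicates 1 to 4. GFP-low replicate 3 stood apart, and the other 3 GFP-low arrays lay inside the GFP-high range. Its difference of 0.76 had a limma adjusted p of 0.499 over all probes and was -0.032 on slide 1 and 1.55 on slide 2. A cDNA probe in the same gene, A_52_P622988 (chr8:80193730-80193789), was measured on GFP-high replicates 3 and 4 alone, at -1.43 and -0.37. Its groups overlapped (exact two-sided permutation p = 0.114), and its difference was 0.49 on slide 1 and 4.24 on slide 2. Against the lowest measured signal of each GFP-low array, the GFP-high mean was 1.05-fold higher. That mean includes GFP-high replicates 1 and 2, which were not measured (-5.39 and -3.76), so it gives no lower bound. The fourth probe, A_51_P417991, was measured nowhere.

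Ednrb, the endothelin receptor ETB, was measured in GFP-low only. Its highest-signal probe A_52_P577662 (mm9 chr14:104214484-104214543, minus strand) was measured on none of the GFP-high arrays, where it read -5.38, -5.34, -3.98 and -4.65 on replicates 1 to 4. It was measured on GFP-low replicates 2, 3 and 4, at -1.97, -1.10 and -1.21, and read -2.34 on GFP-low replicate 1 without being measured there. Every GFP-low array lay above every GFP-high array (exact two-sided permutation p = 0.0286). All 4 GFP-high readings are background, so this order and its p follow largely from detection in 1 group. They are no separate support for a difference. With the lowest measured signal of each GFP-high array in place of its background reading, Ednrb was 1.91-fold lower in GFP-high. All 4 GFP-low arrays stood at their own reading, including the unmeasured GFP-low replicate 1, so this is not a strict bound. It also depends on the floor: with 1 floor common to all arrays the log2 difference was -0.27, and with normexp background correction -0.71. The measured means were -4.84 ± 0.66 in GFP-high and -1.65 ± 0.60 in GFP-low (SD, n = 4 each), of which the first is background. With 3 measured arrays the probe missed the limit for testing. With no such limit, the limma adjusted p was 0.0851, a value that rests on the same background readings. Among all 27827 gene names, 124 (0.446%) were likewise measured on no GFP-high and at least 3 GFP-low arrays, and 70 the other way round. The second Ednrb probe, A_51_P262964, was measured on GFP-low replicate 3 alone, at -0.59.

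Ednrb is known in embryos from neural crest derivatives and from endothelium and endocardium. Of 16 endothelial markers, 5 were measured in GFP-low only (Tie1, Emcn, Npr3, Plvap and Icam2) and 0 in GFP-high only, against 1632 and 1855 of all 27827 gene names. Of the 8 tested endothelial markers, 4 had a difference above 0, among them Egfl7 at 0.64 ± 0.29, without overlap between groups, and Esam at 0.66 ± 0.29 (SE, limma adjusted p = 0.357 and 0.350). Npr3, an endocardial marker, had the same detection pattern as Ednrb, on 0 GFP-high and 3 GFP-low arrays. By the same calculation as for Ednrb, Npr3 was 1.13-fold lower in GFP-high. Pik3ca, from the adaptor and kinase list described below and not an endothelial marker, had this detection pattern too. It was 2.60-fold lower in GFP-high by that calculation. The summed signal of the 16 markers nevertheless overlapped, at 6.01 to 8.63 times the 75th percentile in GFP-high and 5.13 to 9.60 times in GFP-low, and Pecam1, Tek and Eng were measured on no array. Of 14 neural crest and neuron markers, Sox10 was measured on 1 GFP-low array alone and Isl2 on 1 GFP-high array alone, while Tcfap2b, Elavl4, Stmn2 and Fabp7 were among those measured nowhere. The summed signal of those 14 was 4.91 to 17.4 in GFP-high and 4.56 to 10.9 in GFP-low. The part of these cells in the Ednrb reading was not tested.

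**Figure D3:**
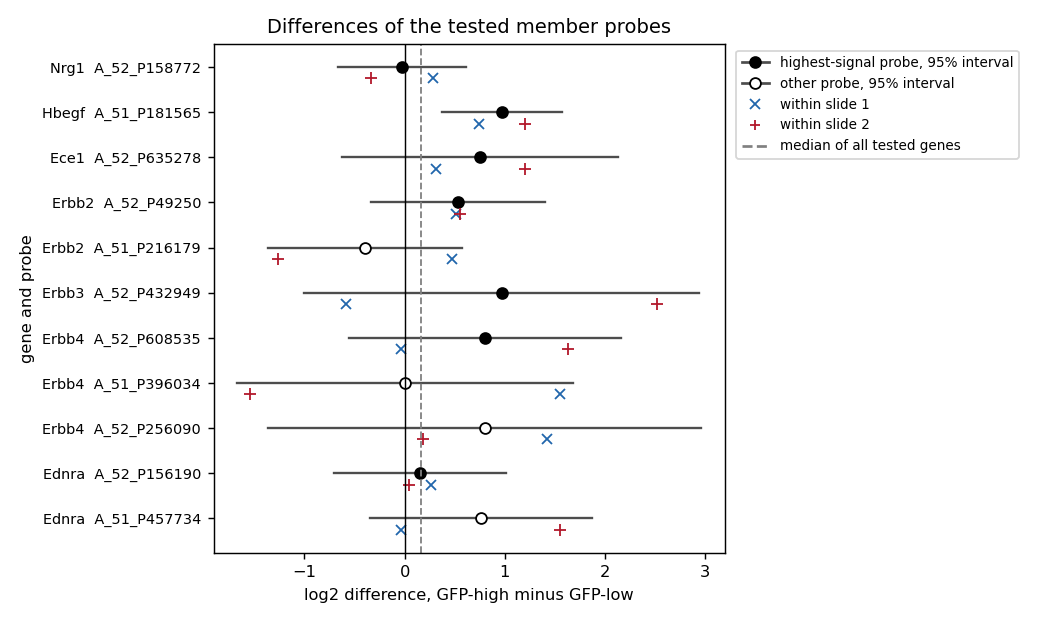
Log2 difference of GFP-high minus GFP-low for the 11 tested member probes, with 95% intervals of the fit over 18482 probes (bars), the differences within slide 1 and slide 2 (crosses) and the median of all tested genes (dashed). Only the Hbegf interval lies wholly above 0, and the slide values of 6 probes lie on opposite sides of 0.

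Probe by probe, none of the 11 tested member probes passed a limma adjusted p of 0.05, against 7 of 18482 probes (0.0379%) in all. Their adjusted p-values ran from 0.215 to 0.999, and 9 of the 11 differences were above 0. Hbegf was the only tested member probe with groups that did not overlap, against 8.63% of all tested probes (5.17% higher and 3.46% lower in GFP-high). The sign was the same on both slides for 5 of the 11 probes, against 65.6% of all tested probes. Ligand and enzyme probes with the same sign on both slides were those of Hbegf and Ece1, and receptor probes were the highest-signal probes of Erbb2 and Ednra and the Erbb4 junction probe. The 3 tested ligand and enzyme genes had a median difference of 0.75. The 4 tested receptor genes all had differences above 0, with a median of 0.67 and a lowest limma adjusted p of 0.522.

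The other genes of the pathways were read as 8 lists with 130 genes in all, of which 128 were on the array and 99 were tested. None passed a limma adjusted p of 0.05 in either direction. An unadjusted limma p under 0.05 was found for 14 of the 99 (14.1%), against 14.3% of all tested genes, and 62.6% of the differences were above 0, against 62.1%. Groups did not overlap for 9 of the 99 (9.09%), against 8.95% of all tested genes. The median difference was 0.15, against 0.16. Nrg2 and Dusp5 were not analysed here.

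**Figure D4:**
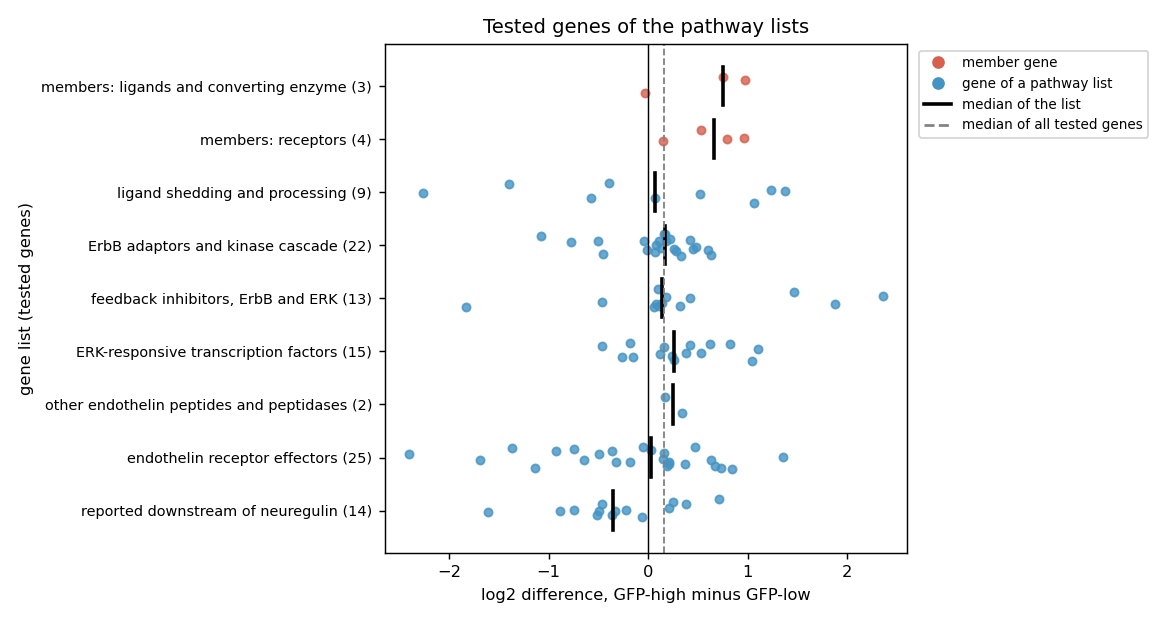
Log2 difference of GFP-high minus GFP-low for each tested gene (points) of the member sets and the pathway lists, with the list's median (bar) and the median of all tested genes (dashed). List medians lie between -0.35 (reported downstream of neuregulin) and 0.26 (ERK-responsive transcription factors), apart from the 2 member sets at 0.75 and 0.67.

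Among the other ErbB ligands, none of the 8 on the array was tested. Nrg3, Nrg4, Areg, Ereg, Btc and Epgn were measured on no array, Egf on 1 array of each group and Tgfa on 1 GFP-high array. Among the ErbB ligand genes on the array, only Hbegf and Nrg1 had a highest-signal probe measured on all 8 arrays. That of Nrg1 was the probe to the unclassifiable cDNA described above. The proteases that shed or process the ligands had 9 tested genes with a median difference of 0.074. Bace1, which cleaves neuregulin in neurons, had a difference of 1.38 ± 0.42 (SE, limma adjusted p = 0.239), and Adam19, a sheddase of neuregulins, 1.24 ± 0.43 (limma adjusted p = 0.271). Other tested probes of Adam19 had differences of 0.0021 and 2.38. Adam9 had -2.26 ± 0.99 (limma adjusted p = 0.348), with groups that overlapped. It was measured on 2 GFP-high and 4 GFP-low arrays, so the size of this difference depends in part on background readings.

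In the adaptor and kinase list 22 genes were tested, with a median difference of 0.17. The smallest p was that of Pik3r1, a regulatory subunit of PI3 kinase, at -1.08 ± 0.30 (SE, limma adjusted p = 0.221), and its groups did not overlap. Other tested probes of Pik3r1 had differences of -0.37 to 0.092. Akt1 was at 0.42 ± 0.25 and Araf at 0.60 ± 0.36 (limma adjusted p = 0.460 and 0.466). The other tested probe of Akt1 had a difference of 0.23, and that of Araf went the other way at -0.69.

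The feedback inhibitors had 13 tested genes, 11 of them with a difference above 0, and a median of 0.14. Spry1, an inhibitor of receptor kinase signalling to ERK, was at -1.66 to -0.70 in GFP-high and at -5.12 to -2.84 in GFP-low. It was measured on 4 GFP-high arrays and 1 GFP-low array, and the difference of 2.36 ± 0.52 (SE) had a limma adjusted p of 0.158. The GFP-high arrays alone met the limit for testing. The other GFP-low arrays stood at background readings, so the size and p of this difference depend on the floor. Rnf41, a ubiquitin ligase that lowers ErbB3 protein, did not overlap between groups either, at 1.88 ± 0.73 (limma adjusted p = 0.314), and Dusp4, an ERK phosphatase, was at 1.47 ± 0.57 (limma adjusted p = 0.314). Among 15 tested ERK-responsive transcription factors the median was 0.26. Ier2 at 0.82 ± 0.32, Etv5 at 1.1 ± 0.47 and Junb at 0.38 ± 0.23 had the smallest p-values (limma adjusted p = 0.314, 0.340 and 0.460), and of these Ier2 did not overlap between groups.

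On the endothelin side, Ece2 and Ecel1, relatives of the converting enzyme, were the 2 tested genes of 6 other peptides and peptidases, with differences of 0.34 and 0.17 (limma adjusted p = 0.608 and 0.745). Edn2 and Edn3, the other endothelin genes, were each measured on 1 GFP-high array and on no GFP-low array. The receptor effectors had 25 tested genes, 13 above 0, and a median of 0.027. Nfatc4, a calcium-regulated transcription factor, was at 1.08 to 1.87 in GFP-high and at -0.59 to 0.41 in GFP-low, and its difference of 1.36 ± 0.31 (SE) had a limma adjusted p of 0.159. Rock1 was at -2.41 ± 0.89 and Gna11 at 0.85 ± 0.41 (limma adjusted p = 0.294 and 0.382).

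Genes reported downstream of neuregulin in trabeculae and conduction cells had 14 tested members, 4 of them above 0, and a median of -0.35. Cited1, a transcriptional co-regulator of chamber myocardium, was at 4.69 to 5.44 in GFP-high and at 6.64 to 6.94 in GFP-low, a difference of -1.61 ± 0.25 (SE, limma adjusted p = 0.0727). It passed the threshold under 7 of 25 alternative settings, with normexp background correction at -1.77 (limma adjusted p = 0.0306). Nppa, the atrial natriuretic peptide gene, was at -0.89 ± 0.23 (limma adjusted p = 0.185) and Cdkn1c, a cell cycle inhibitor, at -0.49 ± 0.21 (limma adjusted p = 0.337), both without overlap between groups. Cited1 and Nppa were also among the 9 chamber markers, whose summed signal was 897 to 1111 in GFP-high and 775 to 1116 in GFP-low. Etv1, which links neuregulin to fast conduction in mouse atria and Purkinje cells, was at -0.46 ± 0.33 (limma adjusted p = 0.534).

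For the tested members the nearest profile was sought among 12882 other tested genes, by the root mean square difference of log2 values over the 8 arrays after each gene was centred on its mean. The nearest to Nrg1 was Htr1f at 0.076, to Hbegf Ephx2 at 0.16, to Erbb2 Samd14 at 0.12 and to Ednra rp9 at 0.19. Ece1 and Erbb3 had no profile nearer than 0.38 (Arhgap19) and 0.46 (Atf7). The member's own SD over the arrays was 0.91 for Ece1 and 1.32 for Erbb3, against 0.27 for Nrg1. None of these nearest genes was itself a member, which says little, since only 7 members were tested among so many genes.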

How the data were processed

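The values were spot intensities on a linear scale in the scanner files that the authors deposited, 1 array per sample. Agilent Feature Extraction 10.5.1.1, named in the submitters' processing notes and per the file headers, subtracted background and replaced the lowest signals by surrogates (34.8% to 49.4% of spots). The deposited series table held the same intensity in all 360144 spots.

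Control spots (1639 per array) and outlier spots were left out, leaving up to 43379 spots, of which 15735 to 22003 were well above background. No spot was saturated. Log2 signal minus the array's 75th percentile was averaged over spots of a probe, and the highest-signal probe stood for a gene. Genes measured on at least 4 of 8 arrays were fitted with limma 3.58.1 in R 4.3.3 (lmFit, eBayes, group as the only term, Benjamini-Hochberg adjusted p under 0.05, two-sided). The number of arrays limits the precision.

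Members, gene lists and tests were chosen with earlier results of these data known. Named genes were all members, Kcne1, per pathway list the called or else the 3 tested genes with the smallest p, and the nearest profile of each tested member (that of Erbb4 and some marker genes are not reported here). Others named (Etv1, Egf, Tgfa, Edn2, Edn3, Lyz2, Cd68, C1qb, Npr3, Egfl7, Esam, and genes measured in 1 group or on no array) were chosen after their values were seen. Positions are those of the files (mm9). Names of list genes not found in the files were looked up among the synonyms of the RefSeq table (GRCm38.p6). The fit was tested on simulated arrays.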

Additional observations from a re-analysis of the deposited data

Results flagged for a closer look

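In 15 probe-and-group combinations of measured member probes, 2 held an array far from the other 3 by Dixon's ratio, a criterion that chance meets in about 1 of 20 groups. Hbegf read 3.54 on GFP-high replicate 3, against 2.75 to 2.86 on the other GFP-high arrays, and without it the Hbegf difference was 0.79. The Ednra probe A_51_P457734 read -1.63 on GFP-low replicate 3, against 0.19 to 0.39 on the other GFP-low arrays.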

How the results depend on the processing

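No member and no member probe passed the limma threshold under any of the 25 alternatives for genes or the 14 for probes. The number of genes called over the whole array, 18, moved to 4 with the 75th percentile over probes measured on all arrays, 0 with median scaling, 9 with quantile normalization, 42 with a common floor, 3 with no filter, 11 with genes measured on all 8 arrays, 11 with a slide block, 0 within slide 1, 0 within slide 2 and 32 with array weights, and to between 0 and 7 when 1 array was left out. With the replicate block it was 0 by limma (2386 at an unadjusted p under 0.05, lowest adjusted p 0.134). Deviations of same-numbered arrays correlated at 0.115, 0.154, 0.301 and 0.065, against -0.198 to 0.0779 for other numbers, and 7 of 8 arrays correlated best with their own number. That is a hint of pairing from the data. The labels name nothing that same-numbered samples share and 1 of the 4 correlations was under 0.1, so the block stayed an alternative.

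Of 173 recomputed member differences, 160 kept their sign. That count includes settings that cannot change a difference, so it overstates stability. These are the slide and replicate blocks, the variance setting of the fit, the series table values and the detection filters. Nrg1 turned positive with quantile normalization (0.018), normexp (0.032), array weights (0.12) and within slide 1 (0.28), and leaving out 1 array put it between -0.16 and 0.11. Erbb3 and Erbb4 turned negative within slide 1 (-0.58 and -0.036). Ednra turned negative with normexp (-0.019) and lay between -0.047 and 0.38 when 1 array was left out. Hbegf kept its sign at 0.74 to 1.21, with adjusted p from 0.0795 to 0.866. The Ednrb difference was -0.71 with normexp and -0.27 with a common floor, which both raise background values. The cause of these shifts was not tested. Probes near background, which include most of those for Nrg1, Egfr, Erbb3 and Ednrb, limit what 4 arrays per group resolve.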
